A study of Mus musculus with 16 samples.

Results

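The CDK inhibitors and p53 target genes described here are 10 genes chosen by name. They are the inhibitors Cdkn1a, Cdkn1b, Cdkn2a, Cdkn2b, Cdkn2c and Cdkn2d, the transcription factor gene Trp53, and the p53 targets Mdm2, Ccng1 and Trp53inp1. Each was read from the array probe sets that the annotation assigns to that gene alone, and the brightest of a gene's probe sets, by its mean on the arrays, stood for the gene. Of the 10 genes, 9 had such a probe set, with 16 probe sets among them. Trp53 itself is not analysed here. A gene was tested if its probe set lay above a log2 signal of 4 on at least 2 arrays, which 8 of the 9 did (all but Cdkn2a), among 10802 of 18193 genes on the arrays.

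The cells were P19CL6, an embryonal carcinoma line of the mouse from which beating heart muscle can be grown. Cultures taken at day 4, 8 or 10 in medium with 1% DMSO (dimethyl sulfoxide) gave 3 arrays each, and those taken at day 6 or 12 gave 2 each. The reference was 3 cultures in growth medium without DMSO, kept undifferentiated by passage every 48 h, for 16 arrays in all. An interval of 48 h, for medium or passage, is listed for the DMSO cultures as well. Every group is the same line with no added transgene named in the labels, and no culture was held as long without DMSO, so DMSO and time without passage cannot be told apart. The labels call the samples of a group independent.

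CDK inhibitors bind cyclin-dependent kinases and hold cells before DNA synthesis. The Cip/Kip proteins p21 (Cdkn1a) and p27 (Cdkn1b) bind cyclin-CDK complexes, and the INK4 proteins p16 (Cdkn2a), p15 (Cdkn2b), p18 (Cdkn2c) and p19INK4d (Cdkn2d) bind CDK4 and CDK6. p53, which DNA damage and other stress stabilise, activates Cdkn1a, Ccng1, Trp53inp1 and Mdm2, and the Mdm2 protein in turn marks p53 for breakdown. In developing heart muscle, p21 and p27 are known to take part in withdrawal from the cell cycle.

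p53 binds DNA as pairs of a decamer, a run of 10 bases that reads alike on both strands. The 250 bases before a transcript start were taken from RefSeq (GRCm38.p6) and searched for the p53 decamer. Of 32851 such windows, 7.13% held at least 1 decamer and 0.0639% held a pair with at most 13 bases between them. The 3 windows shown are those of targets whose spread on the growth arrays differed, each written 5′ to 3′ on the strand of its gene and ending at the base before the start, with decamers in capitals.
Cdkn1a, chr17:29090729-29090978, plus strand: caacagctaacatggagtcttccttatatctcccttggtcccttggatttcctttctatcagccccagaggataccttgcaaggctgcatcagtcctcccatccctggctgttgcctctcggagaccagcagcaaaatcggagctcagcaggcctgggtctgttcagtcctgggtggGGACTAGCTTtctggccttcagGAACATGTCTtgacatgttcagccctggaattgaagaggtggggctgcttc
Ccng1, chr11:40755287-40755536, minus strand: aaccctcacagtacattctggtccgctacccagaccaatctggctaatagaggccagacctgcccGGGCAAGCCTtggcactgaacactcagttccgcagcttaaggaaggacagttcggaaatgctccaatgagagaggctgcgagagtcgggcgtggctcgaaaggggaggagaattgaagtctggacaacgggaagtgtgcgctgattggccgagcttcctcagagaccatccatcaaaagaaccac
Mdm2, chr10:117710759-117711008, minus strand: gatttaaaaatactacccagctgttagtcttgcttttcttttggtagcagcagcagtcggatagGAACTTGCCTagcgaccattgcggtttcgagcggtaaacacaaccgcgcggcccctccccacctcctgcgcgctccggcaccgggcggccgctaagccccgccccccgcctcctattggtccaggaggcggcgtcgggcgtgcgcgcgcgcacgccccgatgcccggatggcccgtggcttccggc
The Cdkn1a window held a pair, at -73 to -64 and -51 to -42 from the start, with 12 bases between. Ccng1 held 1 decamer at -185 to -176 and Mdm2 held 1 at -186 to -177. Cdkn2d also held 1, at -102 to -93, and Trp53 1, at -75 to -66. The windows of Cdkn1b, Cdkn2a, Cdkn2b, Cdkn2c and of the second Cdkn1a start held none of these letters. In all, 9 of the 10 genes had a window, some at more than 1 start, 12 windows together. Trp53inp1, a target that also spread widely on the growth arrays, had no window, so the windows shown leave it out. Only exact matches were searched, and no sequence outside these windows, so the counts do not compare all p53 sites of these genes. A match describes letters, not binding.

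The arrays were close in overall signal, with medians between 3.16 and 3.27 log2 and 39.6 to 42.5% of probe sets above the cutoff. Within a group the lowest correlation across tested genes was 0.956. Day 8 replicate A stood apart: it correlated at 0.992 with a day 6 array and at 0.956 with the array least like it in its own group, and without it 0 of the 8 members were called on day 8. The 6 embryonal carcinoma markers averaged 6.26 to 6.85 log2 on day 12 arrays, against 11.56 to 11.84 on growth arrays, and all 6 were called lower on day 12. The 8 cardiomyocyte markers averaged 12.28 to 12.33 on day 12 arrays, against 2.79 to 3.16 on growth arrays. With bulk RNA, fewer cells of a type and less RNA per cell cannot be told apart. The part of this change of cells in the members' differences was not tested.

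A difference was called at an adjusted p under 0.05 over all 10802 genes, by limma with Benjamini-Hochberg adjustment, and a size of at least 1 log2. The comparisons with growth share the 3 growth arrays. Of the 8 tested members, Cdkn2c passed the dim filter through the day 12 arrays alone, where it was high, so it is described further on without a test and left out of these counts. Of the other 7, 0 were called higher on day 4 (13.3% of all genes were), 0 on day 6 (14% of all genes), 0 on day 8 (16%), 1 on day 10 (18.5%) and 1 on day 12 (22.5%). Lower calls numbered 1 on day 4 (13.6% of all genes), 1 on day 6 (12.9%), 1 on day 8 (15%), 0 on day 10 (19.5%) and 1 on day 12 (19.3%). At an unadjusted p under 0.05, 0 members were higher on days 4, 6 and 8, and 1, Mdm2, was lower on day 10. The lower calls were Cdkn2d on days 4, 6 and 8 and Mdm2 on day 12, and the higher calls were Ccng1 on days 10 and 12. A test over all 6 groups called 3 of these 7, against 60.9% of all genes. They were Cdkn2d (adjusted p = 0.000485), Mdm2 (0.00134) and Ccng1 (0.00864).

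**Figure D1:**
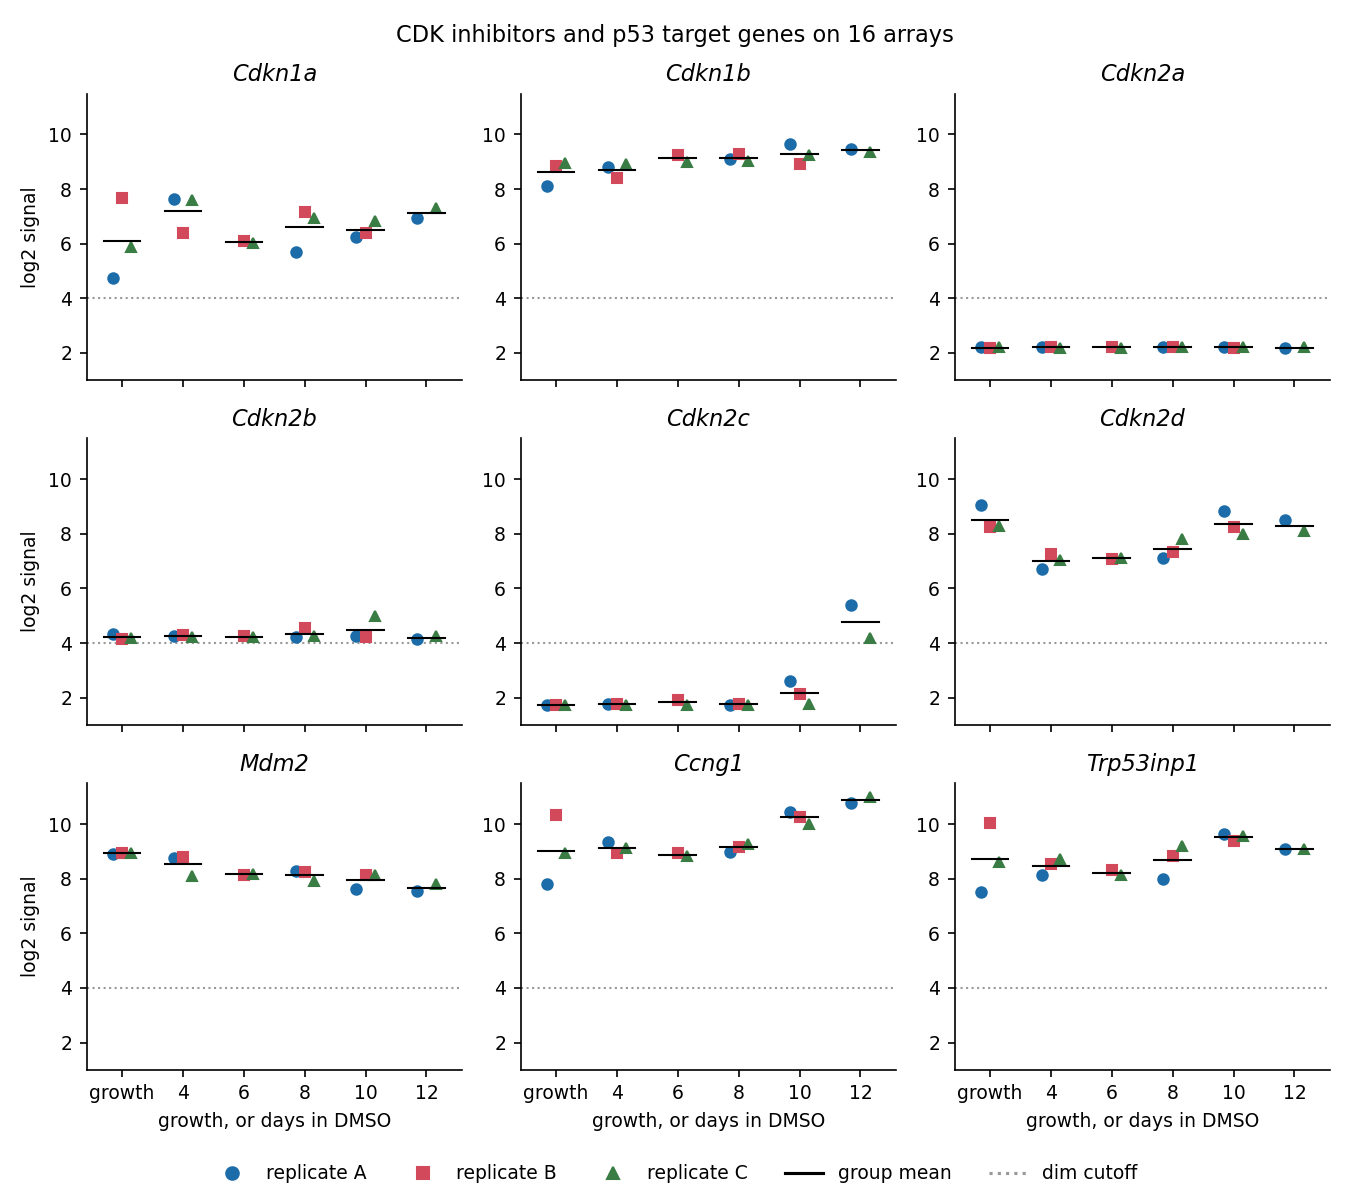
Log2 signal of the 9 members with a probe set, by array, with growth at the left and days in DMSO to the right; points are arrays, bars are group means and the dotted line is the dim cutoff of 4. Cdkn1a, Ccng1 and Trp53inp1 spread over more than 2.5 log2 among the 3 growth arrays, Cdkn2c lies above the cutoff on the day 12 arrays alone, and Cdkn2d dips on days 4 to 8.

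Among the Cip/Kip inhibitors, Cdkn1a (chr17:29090979-29100722) read 4.75, 7.69 and 5.88 log2 in growth replicates A, B and C. It read 7.62, 6.40 and 7.61 on day 4, 6.11 and 6.01 on day 6, and 5.70, 7.16 and 6.93 on day 8 (replicates A, B and C). On day 10 it read 6.26, 6.39 and 6.82, and on day 12 6.96 and 7.32. Every DMSO array lay inside the range of the growth arrays. The mean was 1.10 log2 higher on day 4 than in growth (95% interval -0.17 to 2.38, adjusted p = 0.143) and 1.04 higher on day 12 (-0.39 to 2.46, 0.192), so neither passed.

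These Cdkn1a comparisons turned on 1 growth array. Without growth replicate B, Cdkn1a was called higher than growth on day 4 by 1.90 log2 (adjusted p = 0.00599), on day 8 by 1.28 (0.0398), on day 10 by 1.18 (0.0498) and on day 12 by 1.83 (0.00902), but not on day 6 (0.75, 0.28). Without growth replicate A the differences were 0.43 on day 4 and 0.36 on day 12, and -0.72 on day 6, with none called. The groups with the lowest and highest Cdkn1a means, days 6 and 4, averaged 6.06 ± 0.07 (SD, n = 2) and 7.21 ± 0.71 (SD, n = 3), and did not pass against each other (day 6 minus day 4, -1.15, adjusted p = 0.395). A second Cdkn1a probe set lay between 1.63 and 2.79 on all arrays, under the cutoff.

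Cdkn1b (chr6:134920401-134925525) had means of 8.63 ± 0.46 log2 in growth, 8.71 ± 0.28 on day 4, 9.12 ± 0.19 on day 6, 9.13 ± 0.13 on day 8, 9.28 ± 0.37 on day 10 and 9.42 ± 0.06 on day 12 (SD, n as above). The means of this probe set, the brightest, followed the order of the time course, though no day differed from the next beyond the error. A second Cdkn1b probe set did not follow that order, but it averaged 3.99 log2 and lay above the cutoff on only 4 arrays. All growth arrays were under the cutoff for it, at 3.92, 3.82 and 3.73, so it carries little information on differences. This second probe set lay 0.47 log2 above growth on day 8, 0.07 on day 10 and 0.45 on day 12, with none called (adjusted p = 0.13, 0.833 and 0.175 over all 18970 probe sets). For the brightest probe set, both day 12 arrays, 9.46 and 9.38, lay above the growth arrays, which read 8.11, 8.84 and 8.94. The differences from growth on day 10 (0.65, adjusted p = 0.0301) and day 12 (0.79, 0.0198) met the threshold on p but not the 1 log2 minimum. Cdkn1c, which encodes the Cip/Kip inhibitor p57 and was added for completeness, stayed under the cutoff on every array, the highest being 3.91 in day 12 replicate C.

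Among the INK4 inhibitors, Cdkn2d (chr9:21288459-21291421) was lower in the first DMSO groups and close to growth in the last ones. The growth arrays read 9.06, 8.24 and 8.27 log2. It read 6.71, 7.28 and 7.04 on day 4, 7.10 and 7.11 on day 6, 7.13, 7.35 and 7.81 on day 8, 8.84, 8.25 and 8.01 on day 10, and 8.50 and 8.11 on day 12. No array of days 4, 6 or 8 reached the growth range, while the day 10 and 12 arrays overlapped it.

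Cdkn2d fell by 1.51 log2 against growth on day 4 (2.86-fold, adjusted p = 0.000441), by 1.42 on day 6 (2.68-fold, 0.00191) and by 1.10 on day 8 (2.14-fold, 0.00394). The day 8 call was lost without day 8 replicate A (-0.94, adjusted p = 0.0173) and without growth replicate A (-0.83, 0.0208), both under the 1 log2 minimum. On day 10 the difference was -0.16 (95% interval -0.74 to 0.43) and on day 12 -0.22 (-0.87 to 0.43). Day 12 was higher than day 4 by 1.29 log2 (2.45-fold, adjusted p = 0.00305). Day 10 minus day 8 was 0.94 (0.0327), under the minimum size.

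Cdkn2c (chr4:109660876-109666756) was seen on day 12 arrays alone. It read 5.38 and 4.18 log2 in day 12 replicates A and C, against 1.74, 1.74 and 1.74 in growth. All arrays of days 4 to 8 lay at or under 1.91, and day 10 read 2.60, 2.14 and 1.76. Both day 12 arrays thus lay above every other array, and their mean was at least 1.72-fold above the other groups, all of them under the cutoff. These 2 arrays alone brought Cdkn2c past the dim filter, so a difference was built into its selection and no test is given. With values under 4 set to 4, the day 12 mean lay 0.78 above growth.

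Marker lists of several other cell types were also higher on day 12 arrays than on growth arrays, and each was already higher on day 10 arrays, where Cdkn2c was dim. The 3 tested endoderm markers, Afp, Ttr and Apoa1, of 5 listed, averaged 8.80 to 9.02 log2 on day 12 arrays and 5.64 to 6.98 on day 10 arrays, against 2.87 to 2.97 on growth arrays. The other 2, Foxa2 and Sox17, did not pass the dim filter. Afp, which encodes alpha-fetoprotein of yolk sac and fetal liver, averaged 9.12 ± 0.19 on day 12 and 3.36 ± 0.86 on day 10, against 2.77 ± 0.03 in growth. The 7 smooth muscle and mesenchyme markers averaged 9.82 to 10.36 on day 12 arrays and 8.57 to 9.16 on day 10 arrays, against 3.63 to 4.07 on growth arrays. The 6 tested endothelium and blood markers, of 7 listed, averaged 6.25 to 6.32 on day 12 arrays and 7.51 to 8.01 on day 10 arrays, against 2.52 to 2.79 on growth arrays. The 8 cardiomyocyte markers, too, averaged 12.28 to 12.33 on day 12 arrays and 10.98 to 11.37 on day 10 arrays. Between days 10 and 12, 2.88% of all genes were called higher. So were 1 of the 3 endoderm markers (Afp) and 2 of the 7 smooth muscle and mesenchyme markers (Myl9 and Col3a1). Of the 6 endothelium and blood markers 0 were, and of the 8 cardiomyocyte markers 1 was (Ryr2). The part of any such cells in the Cdkn2c signal was not tested. The genes most like Cdkn2c over the 16 arrays were Cfi, Fxyd1 and Shisa6 (Pearson r = 0.99, 0.99 and 0.99), as a description set mainly by the pair of day 12 arrays.

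The neighbouring genes Cdkn2a (chr4:89274473-89294619) and Cdkn2b (chr4:89306289-89311032) were dim or near the cutoff throughout. Cdkn2a lay between 2.16 and 2.22 log2 on all 16 arrays, so nothing can be said of it below the cutoff. The locus also encodes Arf, and which of its transcripts the single probe set reads is not given in the sources used here. Cdkn2b lay between 4.14 and 4.98, the highest array being day 10 replicate C. Its largest difference from growth was 0.27 log2 on day 10 (95% interval -0.12 to 0.66, adjusted p = 0.218).

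Among the p53 targets, the brightest probe set of Mdm2 (chr10:117688875-117710758) had a lower mean at each later day and was called lower than growth on day 12. The growth arrays read 8.92, 8.96 and 8.94 log2. It read 8.74, 8.79 and 8.12 on day 4, 8.15 and 8.18 on day 6, 8.27, 8.24 and 7.92 on day 8, 7.61, 8.12 and 8.13 on day 10, and 7.55 and 7.79 on day 12. On this brightest probe set, all 13 DMSO arrays lay below all 3 growth arrays. Mdm2 fell by 1.27 log2 on day 12 (2.40-fold, adjusted p = 0.000237). The differences of -0.77 on day 6 (0.0126), -0.79 on day 8 (0.00422) and -0.98 on day 10 (0.000731) were under the minimum size. A second Mdm2 probe set was lower by 0.85 on day 10 (0.00262) and 0.83 on day 12 (0.00616), also under it, and the remaining one was dim. On that second probe set, day 4 replicates B and C, at 7.01 and 7.25, lay above growth replicate A at 6.90.

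Ccng1 (chr11:40748552-40755309), which encodes cyclin G1, was highest at the end of the time course. Its brightest probe set read 10.44, 10.26 and 10.01 log2 on day 10 and 10.79 and 10.99 on day 12, against 7.80, 10.34 and 8.95 in growth replicates A, B and C. On days 4, 6 and 8 it stayed between 8.82 and 9.34. Both day 12 arrays lay above every growth array, and 1 of 3 day 10 arrays did. Ccng1 rose by 1.21 log2 on day 10 (2.32-fold, adjusted p = 0.0254) and by 1.86 on day 12 (3.62-fold, 0.00412). Day 12 was higher than day 4 by 1.75 (3.37-fold, 0.0078), a call lost without day 12 replicate C (adjusted p = 0.0551).

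The size of the Ccng1 rise depended on the growth arrays. Without growth replicate B it was 1.87 on day 10 (adjusted p = 0.000104) and 2.51 on day 12 (2.06e-05). Without growth replicate A it was 0.60 on day 10 (0.12) and 1.24 on day 12 (0.00734). The day 10 call was also lost without growth replicate C (0.0639) and without day 10 replicate A or B.

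The 3 Ccng1 probe sets gave different calls against growth and the same call between days 4 and 12. A dimmer one was lower than growth by 1.45 log2 on day 4 (adjusted p = 0.00409) and by 1.61 on day 6 (0.00507), with no difference called on day 12. The remaining one was not called against growth on any day, at 1.20 on day 12 (0.0609). Day 12 against day 4 was called higher by all 3, at 1.75, 1.45 and 1.70 (0.00914, 0.00791 and 0.0152 over all 18970 probe sets). With the mean of the probe sets in place of the brightest, neither rise against growth was called.

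Trp53inp1 (chr4:11156441-11174379), which encodes a p53-induced nuclear protein, spread as widely in growth. It read 7.52, 10.04 and 8.61 log2 in growth replicates A, B and C. On days 4, 6 and 8 it lay between 8.00 and 9.20, on day 10 it read 9.62, 9.36 and 9.57, and on day 12 9.09 and 9.08. All DMSO arrays lay inside the growth range. Its day 10 mean was 0.80 above growth (95% interval -0.21 to 1.80, adjusted p = 0.156). Without growth replicate B, Trp53inp1 was called higher on day 10 (1.45, 0.00335) and day 12 (1.02, 0.0356). Without growth replicate A the same differences were 0.19 and -0.24.

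**Figure D2:**
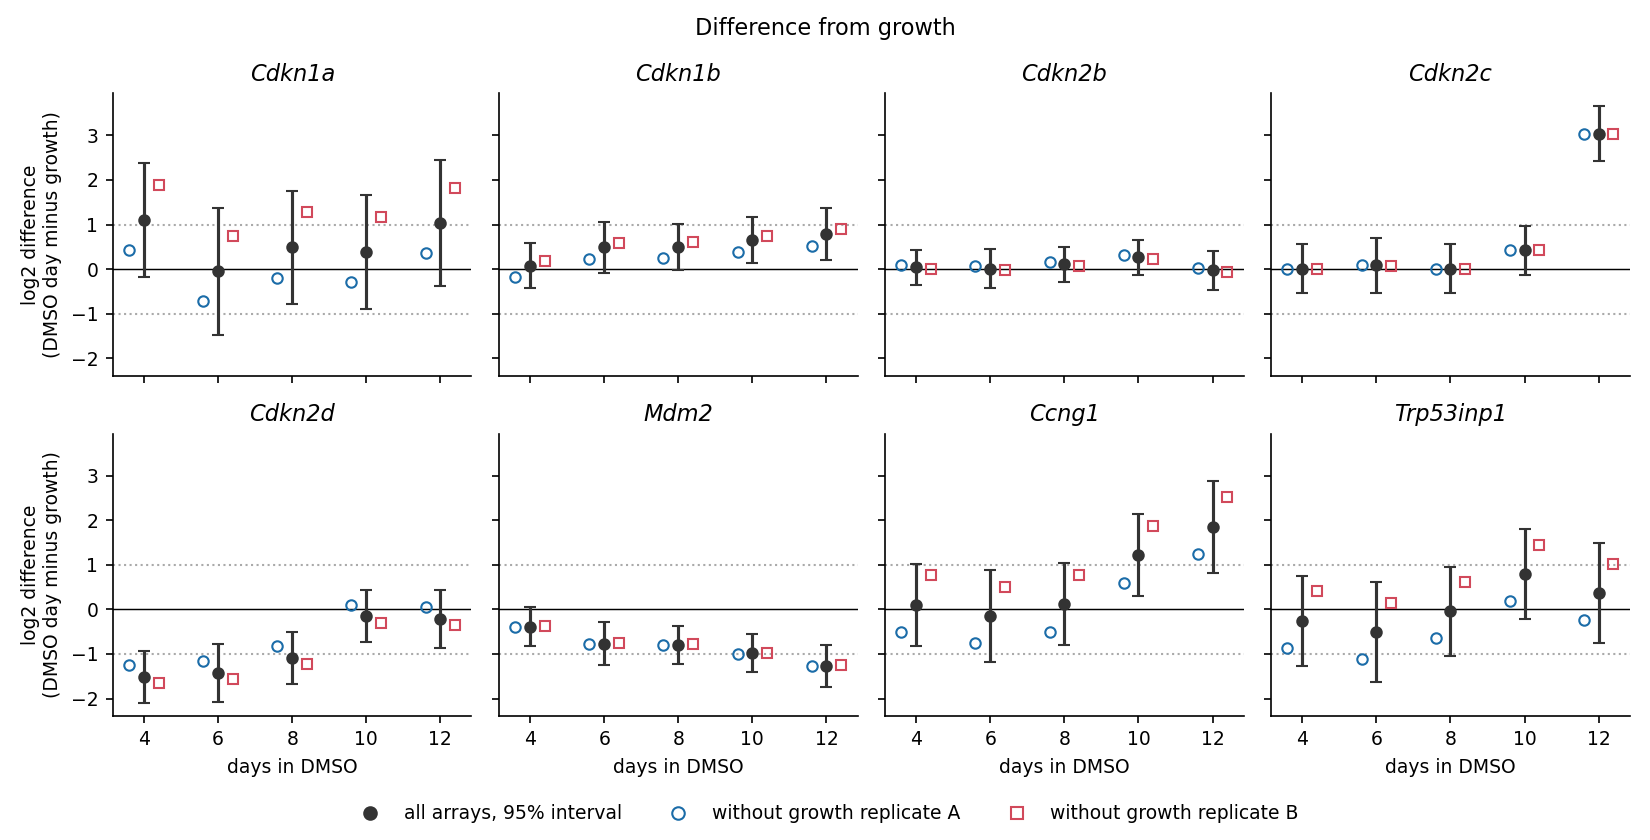
Log2 difference of each DMSO day from growth for the 8 tested members; filled points with bars are limma estimates with 95% intervals over all arrays, open points leave out growth replicate A (circles) or B (squares), and dotted lines mark 1 log2. For Cdkn1a, Ccng1 and Trp53inp1 the open symbols lie on either side of the filled ones, while those of Mdm2 overlie them; Cdkn2c passed the dim filter through day 12 alone.

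The 3 growth cultures differed from each other in one direction for 3 of the 4 p53 targets. Cdkn1a, Ccng1 and Trp53inp1 were each lowest in replicate A, between in C and highest in B, with ranges of 2.94, 2.54 and 2.52 log2. A growth SD as large as theirs was found in 0.157, 0.398 and 0.417% of tested genes. The Mdm2 range was 0.04, and 97.7% of tested genes had a growth SD at least as large as its own. The second Mdm2 probe set read 6.90, 7.40 and 7.58. This pattern was chosen for description after its values were seen, so no test is given.

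The same order with a range of at least 1 log2 held for 6 of the 24 tested genes of a list of other p53 targets, which is 25%, and for 484 of all 10802 genes, 4.48%. The 6 were Plk2, Phlda3, Eda2r, Apaf1, Zmat3 and Ei24, of which Eda2r lay above the cutoff on growth arrays alone. Plk2, a stress-induced kinase, read 2.26, 6.17 and 4.56 in replicates A, B and C. Phlda3, an inhibitor of Akt signalling, read 5.99, 7.99 and 6.85, and Zmat3, an RNA-binding zinc finger gene, read 8.90, 10.09 and 9.39. The opposite order, highest in A and lowest in B, held for 0 of the 24 and for 1.01% of all genes. Among the other lists, the first order, lowest in A and highest in B, held for 1 of 19 p53 regulators and 1 of 21 regulators of the CDK inhibitors. It also held for 1 of 17 kinases and cyclins, 1 of 14 pocket proteins and E2F factors, and 1 of 7 smooth muscle and mesenchyme markers. The opposite order held for 1 of the 19 p53 regulators. Of the 12 proliferation, 6 embryonal carcinoma, 8 cardiomyocyte, 6 endothelium and blood, 3 endoderm and 1 neural markers, 0 showed either order. The 3′ minus 5′ control difference for Actb, a measure of RNA integrity, was 0.96, 0.87 and 0.90 on the growth arrays, and for Gapdh -0.34, -0.29 and -0.35.

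**Figure D3:**
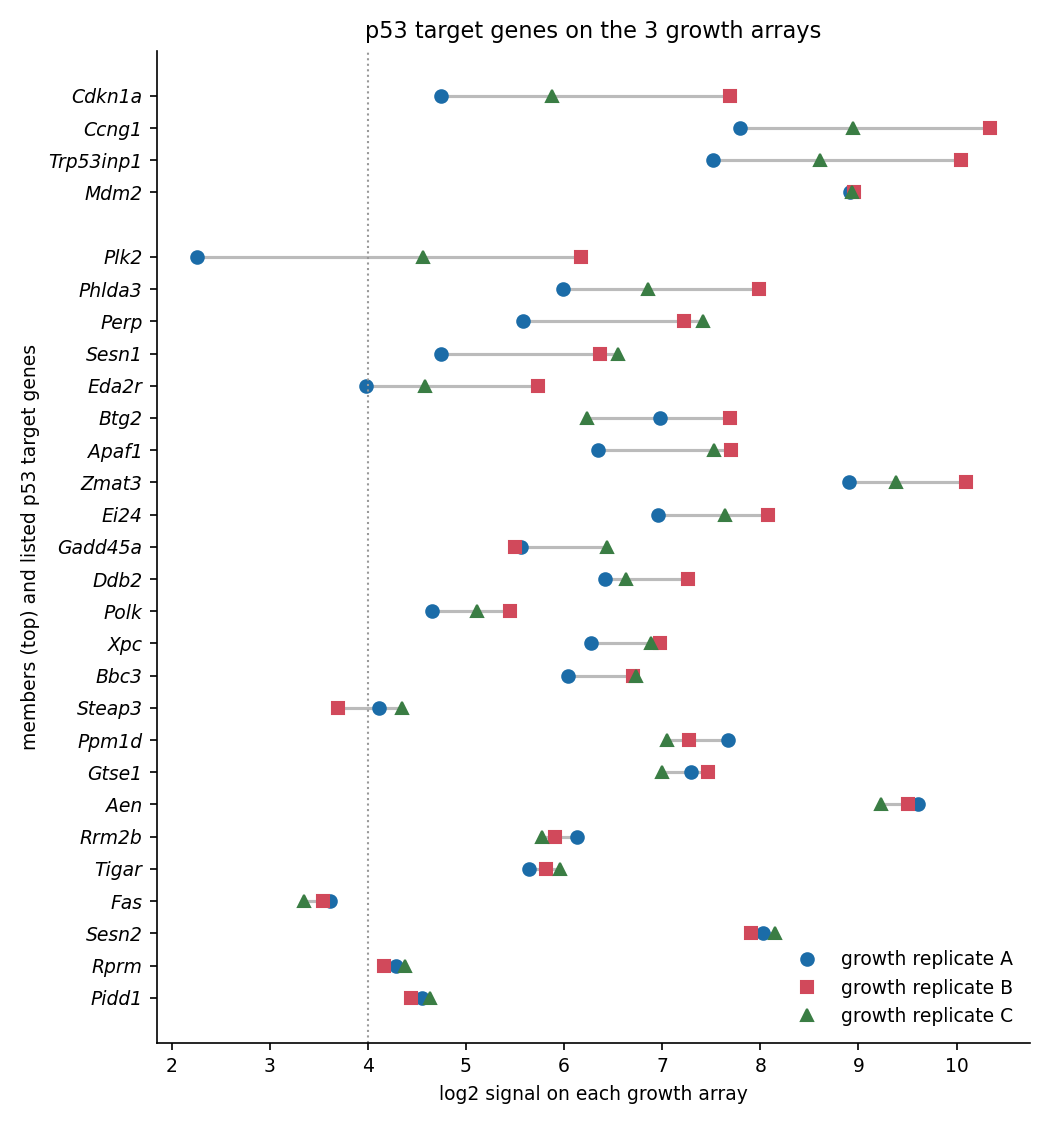
Log2 signal on the 3 growth arrays for the 4 p53 targets among the members (top) and for 24 other listed p53 targets, ordered by range; symbols are replicates, lines join lowest and highest, and the dotted line is the dim cutoff of 4. Replicate A lies left and B right for Cdkn1a, Ccng1, Trp53inp1, Plk2, Phlda3, Eda2r, Apaf1, Zmat3 and Ei24, while the 3 Mdm2 points coincide.

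Between successive DMSO days, none of the 7 members other than Cdkn2c was called. That held between days 4 and 6 (6.13% of all genes were, in either direction), between days 6 and 8 (0.0185%, or 5.66% without day 8 replicate A, again with none of the 7), between days 8 and 10 (7.81%) and between days 10 and 12 (3.06%). At an unadjusted p under 0.05 the counts for these 4 steps were 0, 0, 2 (Cdkn2d and Ccng1, both higher on day 10) and 0. Day 12 against day 4 called 2 of the 7, Cdkn2d and Ccng1, both higher (32.2% of all genes in either direction). Over the 13 DMSO arrays, as a description of arrays that share the time course, Cdkn2d correlated with Trp53inp1 at r = 0.87 and with Ccng1 at 0.85, and Mdm2 with Cdkn1b at -0.84. Over all 16 arrays the first pair had r = 0.37 and the second 0.31.

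By Pearson correlation over the 16 arrays, the tested gene most like Trp53inp1 was another member, Ccng1, at r = 0.80. The closest to Cdkn1a was Clic6 at 0.77, to Cdkn1b Emd at 0.91 and to Cdkn2b Runx1 at 0.92. Tmem51 was closest to Cdkn2d at 0.93, Rpf1 to Mdm2 at 0.93 and Ctnnal1 to Ccng1 at 0.92. The arrays share the time course, so such values describe shape alone.

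Other p53 targets, 30 in a list of which 24 were tested, were called in both directions, as were genes over the whole array. On day 4, 3 were called higher and 5 lower (13.3 and 13.6% of all genes), on day 6 4 and 5 (14 and 12.9%), on day 8 6 and 5 (16 and 15%), on day 10 5 and 6 (18.5 and 19.5%), and on day 12 7 and 6 (22.5 and 19.3%). Among the 24, Eda2r and Steap3 lay above the cutoff on growth arrays alone. Eda2r is counted among the lower calls of every day, though a fall was built into its selection. Steap3 was not called on any day. The list's median difference from growth was -0.17, -0.06, 0.03, -0.18 and 0.09 log2 on days 4, 6, 8, 10 and 12. Over all genes it was -0.003, 0.004, 0.009, -0.017 and 0.001. Rprm, a p53 target linked to arrest before mitosis, averaged 8.65 ± 0.49 on day 12, against 4.28 ± 0.10 in growth, and rose by 4.37 log2 (20.7-fold, adjusted p = 1.3e-05). Plk2 averaged 9.40 ± 0.45 on day 10, against 4.33 ± 1.97 in growth, and rose by 5.07 (33.5-fold, 9.7e-05). That fold was 16.4 without growth replicate A, which read 2.26, under the cutoff, and 63.5 without growth replicate B.

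In the other direction, Aen, a p53-induced nuclease gene, fell by 3.11 log2 on day 12 (8.64-fold, adjusted p = 5.67e-07), with 6.34 ± 0.22 on day 12 and 9.45 ± 0.19 in growth. Zmat3 fell by 2.25 on day 12 (4.75-fold, 2.21e-05). Without growth replicate B, higher and lower calls on day 4 were 5 and 4, and without growth replicate A they were 1 and 6. On day 6 they were 6 and 2 without B and 2 and 4 without A, and on day 8 7 and 3 without B and 4 and 5 without A. On day 12 they were 8 and 5 without B and 6 and 6 without A. Over all genes, higher calls on these days were likewise more numerous without B than without A, and lower calls fewer. On day 4, 1540 were called higher and 1464 lower of 10736 without B, and 1240 and 1565 of 10747 without A. On day 6 these counts were 1560 and 1336 without B, and 1315 and 1445 without A. On day 8 they were 1806 and 1578, and 1518 and 1699. On day 12 they were 2493 and 2050, and 2251 and 2146.

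Of 19 tested regulators of p53, 1 was called higher on day 12 (22.5% of all genes were) and 5 lower (19.3%), a median difference of -0.40 log2, against 0.00 over all genes. Hipk2, a kinase that phosphorylates p53, rose on all 5 days, by 2.28 log2 on day 12 (4.87-fold, adjusted p = 7.27e-07). Chek2, a DNA damage checkpoint kinase, fell by 2.20 on day 12 (4.58-fold, 0.000166). Rchy1, a ubiquitin ligase for p53, fell by 1.51 on day 4 (2.86-fold, 1.8e-05) and stood 0.97 below growth on day 12, under the minimum size.

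Of 17 tested kinases and cyclins on which the inhibitors act, listed with their regulators, 3 were called higher (22.5% of all genes) and 6 lower (19.3%) on day 12, with a median difference of -0.79 log2, against 0.00 over all genes. Cdk6, a partner of the INK4 proteins, fell by 2.31 on day 12 (4.97-fold, adjusted p = 0.000648). The D cyclin genes Ccnd2 and Ccnd3 rose by 1.72 (3.29-fold, 0.00311) and 1.93 (3.80-fold, 2.24e-05). The remaining D cyclin gene, Ccnd1, and the INK4 partner Cdk4 were called lower, and are named after their values were seen. Ccnd1 averaged 5.24 ± 0.96 on day 12, against 7.10 ± 0.37 in growth, and fell by 1.86 (3.62-fold, 0.0123), a call lost without day 12 replicate A (-1.18, 0.17). Cdk4 fell by 1.25 on day 12 (2.38-fold, 8.11e-05). Of the 12 proliferation markers, 9 were called lower on day 12 and 0 higher, and they averaged 8.79 to 8.88 log2 on day 12 arrays, against 10.50 to 10.59 on growth arrays. Whether the members' changes and this fall are linked was not tested.

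**Figure D4:**
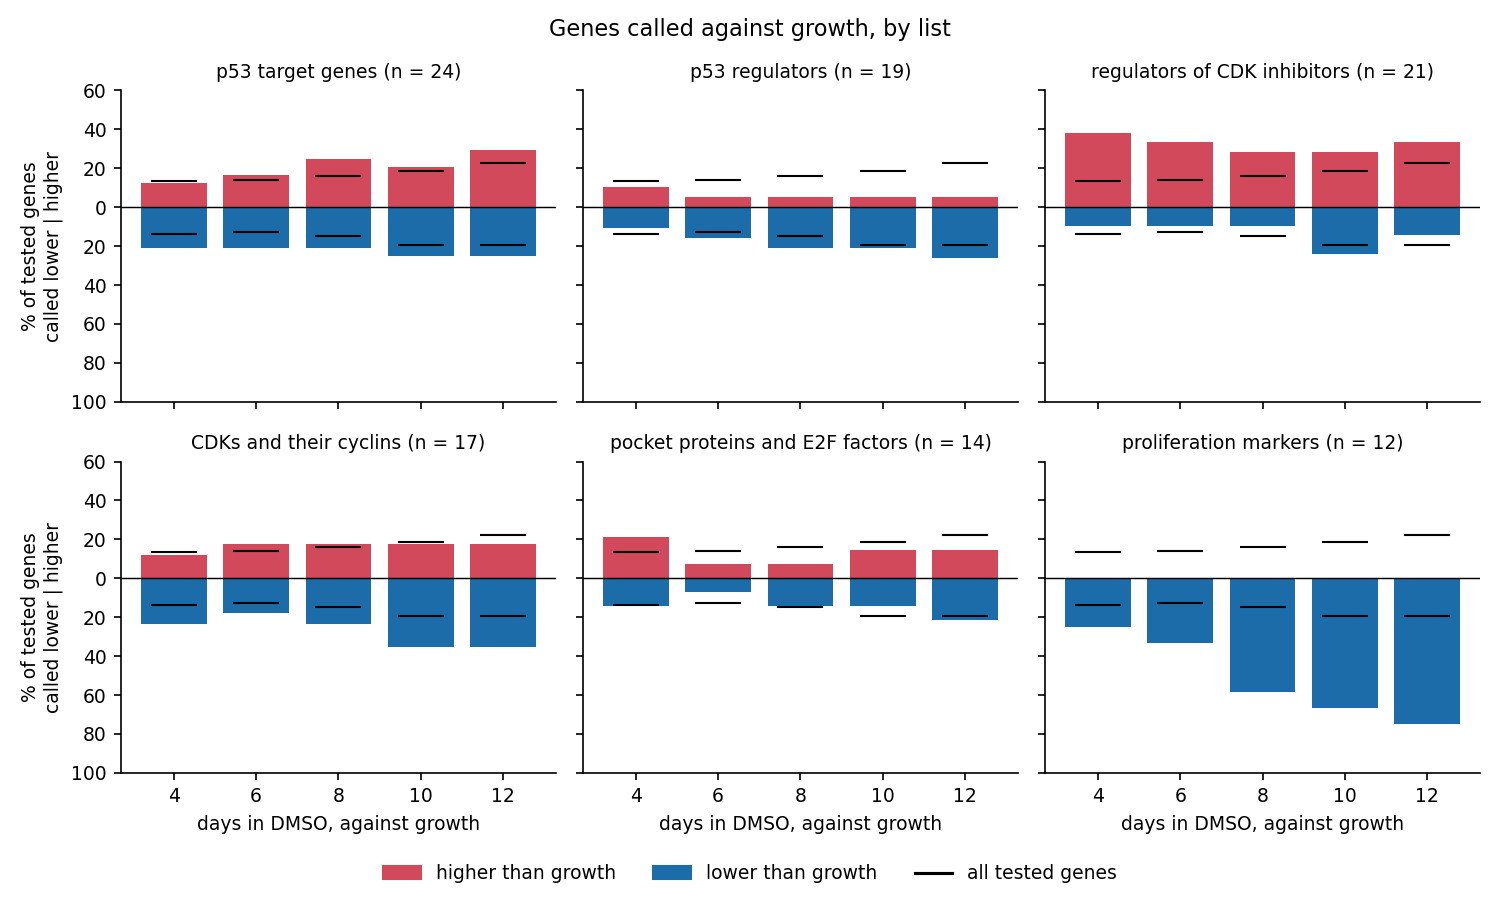
Share of each list's tested genes called higher (upward bars) or lower (downward bars) than growth on each DMSO day, in percent; black marks give the same share over all 10802 tested genes. Bars for p53 target genes stand on both sides of 0, and proliferation markers are called lower, 3 of 12 on day 4 and 9 of 12 on day 12. The lower bars of p53 target genes include Eda2r, which lay above the cutoff on growth arrays alone.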

How the data were processed

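The deposited values are 1 table of 45101 probe sets by 16 Affymetrix arrays. Per the submitters' processing notes the authors made them with GCRMA, which corrects background, normalizes by quantiles and summarizes probes. The version and the scale are not given in the sources used here. The deposited values, 0.86 to 15.9, were read as log2 from their range, so every log2 difference and fold rests on that reading, and were used unchanged.

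Probe sets naming several genes (932) or none here (9160) and 64 Affymetrix controls were left out. A linear model over the 16 arrays, with the 6 group means as its terms, was fitted in limma 3.58.1 under R 4.3.3 (lmFit, eBayes, 10 residual and 3.53 prior degrees of freedom), and the fit was tested on simulated data. Where a group lay wholly under 4, the fold was computed against 4 and is a lower bound. Replicate letters were checked for pairing: 13 of 35 same-letter pairs had deviations correlated above 0.1. The mean correlation was 0.064 for same-letter pairs and -0.031 for others, and 12 of 16 arrays were best matched by an array of their letter. This check does not settle pairing. The labels do not say that letters mark a shared culture or day, so the main fit used no block.

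The members, the lists and the alternatives were chosen with earlier results of these data known. Named genes are all members, Cdkn1c, up to 4 called genes of each list with the largest differences, and each member's closest genes by correlation. Promoters and positions come from RefSeq GRCm38.p6. The array files hold no coordinates. Each p-value sets differences of group means against the spread between cultures within groups, pooled over the 6 groups and moderated by limma.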

Additional observations from a re-analysis of the deposited data

How the results depend on the processing

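Each of 80 member comparisons was repeated under 26 settings, 16 of them leaving out 1 array. Counts here include Cdkn2c, which passed the dim filter through day 12 alone. Its day 12 calls, against growth, day 10 and day 4, are among the 11 below, though a difference was built into its selection. Of 11 called comparisons, 4 held under every setting: Cdkn2d on days 4 and 6 against growth, Cdkn2d on day 12 against day 4, and Mdm2 on day 12. Of 69 not called, 54 were never called, and no called difference changed sign. Cdkn2c had no value with the dim filter at 6, with quantile normalization repeated, or without either day 12 array. Without a dim filter, and with the mean of probe sets, 0 members were called higher on day 10 (10.8 and 17.2% of all genes). Higher calls on day 12 were 1 with the filter at 6 (23% of all genes) and with quantile normalization repeated (21%). They were also 1 with values under 4 set to 4 (20.9%) and with the mean of probe sets (21.4%). Under the first 3 of these settings 0 were called between days 10 and 12 (1.57, 2.53 and 2.84% of all genes). Repeated quantile normalization called 1 between days 8 and 10 (7.82% of all genes), and scaling to a common median called 1 lower on day 10 (20.2%). With no minimum difference, lower calls were 2 on day 6 (21.8% of all genes), 2 on day 8 (27.2%) and 1 on day 10 (31.7%). Higher calls were then 2 on day 10 (28.4%). Calls in either direction were 1 between days 8 and 10 (15.8%) and 5 between days 4 and 12 (51.7%). Leaving out 1 array gave 0 to 1 higher calls on day 4, 0 to 1 on day 8, 0 to 3 on day 10 and 1 to 4 on day 12, 0 to 1 lower calls on days 8 and 10, and 0 to 1 calls between days 8 and 10 and between days 10 and 12. The highest counts of members above growth, 1, 1, 3 and 4 on days 4, 8, 10 and 12, came without growth replicate B. The shares of all genes were then 14.3, 16.8, 19.2 and 23.2%, and the day 12 count includes Cdkn2c. With the replicate letter as a replicate block, counts of members called were the same in every comparison, 2 higher and 1 lower on day 12 among them, and 4 by the test over all groups. Without Cdkn2c the main counts are 1 higher on day 12 and 3 by the test over all groups. Of 16 arrays, 12 were best matched by an array of their own letter, a hint from the data only. The cause of each lost or gained call was not tested beyond the arrays left out. Values near or under the cutoff, as for Cdkn2a, Cdkn2b and Cdkn2c, carry little information on differences.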

Other observations

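Of 21 tested genes that regulate the CDK inhibitors, 8 were called higher and 2 lower on day 4 (13.3 and 13.6% of all genes), and 7 and 3 on day 12 (22.5 and 19.3%). Tbx3, a T-box repressor of Cdkn1a and of the Arf transcript of Cdkn2a, averaged 10.04 ± 0.54 log2 on day 4, against 3.23 ± 0.13 in growth, where it was dim (at least 65.7-fold, adjusted p = 7.04e-08). Id1, an inhibitor of helix-loop-helix factors, averaged 11.58 ± 0.54 on day 4, against 5.24 ± 1.42 in growth (81.1-fold, 6.57e-07, and 46.1-fold without growth replicate B). Ets1, an activator of Cdkn2a, rose by 4.34 log2 on day 12 (20.2-fold, 1.31e-06). Cbx7, a Polycomb protein that represses Cdkn2a, was dim on day 12 at 2.55 ± 0.75, against 8.47 ± 0.04 in growth (at least 22.1-fold lower, adjusted p = 2.63e-07).

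Among the pocket proteins and E2F factors, which act downstream of the inhibitors, 2 of 14 tested were called higher on day 12 (22.5% of all genes) and 3 lower (19.3%). Rb1, the retinoblastoma gene, averaged 8.42 ± 0.38 log2 on day 12, against 5.41 ± 0.67 in growth (8.07-fold, adjusted p = 1.63e-05). Rbl2, which encodes p130, averaged 7.40 ± 0.46 on day 12, against 3.91 ± 0.07 in growth, where it was dim (at least 10.6-fold, 6.13e-06). E2f4 was dim on day 12, against 6.21 ± 0.42 in growth (at least 4.64-fold lower, 5.32e-05).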
